A study of Mus musculus with 6 samples.

Results

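The genes described here are those of the cell death machinery: the BCL2 family, the caspases with their activators and inhibitors, and the death receptors with their adaptors. They were chosen by symbol, as a list of 38 genes, and 32 of the 38 have a row in the deposited table of 15726 genes. Bik, Hrk, Pmaip1, Casp1, Casp12 and Ripk3 were not analysed here. The samples were cultures of B16F10, an established murine melanoma line, kept for 8 h either with 50 μg/mL of the preparation coded rPPAA18C6@Dox (3 libraries) or with PBS, the buffer control (3 libraries). No other agent, genotype or time is named for either group, and the contents of the preparation are given only by its code, so the effect of its parts cannot be told apart. ER stress and pyroptosis, a lytic form of cell death, are the processes named in the title of the series. Whether the 3 libraries per group are separate cultures is not given by the labels, and the p-values therefore measure library-to-library spread that may be technical. The sign of every difference also depends on reading 3 columns as rPPAA18C6@Dox by elimination.

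In the mitochondrial route to apoptosis, BH3-only proteins such as PUMA (Bbc3) and BIM (Bcl2l11) bind the guardians of the BCL2 family, and BAX and BAK, once free, open pores in the outer mitochondrial membrane. Cytochrome c then leaves the mitochondria and assembles with APAF1 into the apoptosome, which activates caspase-9. In the receptor route, ligand-bound receptors recruit the adaptor FADD and caspase-8, and c-FLIP (Cflar), a relative of caspase-8 that lacks its protease activity, competes for the same place. Where caspase-8 is inactive, RIP kinases and MLKL can carry out necroptosis. Melanoma cells are known for high levels of guardians such as BCL2 and MCL1. Much of this control acts on proteins, by binding and cleavage, and the values here are of mRNA.

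All values are FPKM, that is, reads divided by gene length and by library depth. Differences, estimated with limma, are on the scale of log2(FPKM + 1) and are given as rPPAA18C6@Dox minus PBS with their standard error (SE), and adjusted p-values are Benjamini-Hochberg values over all tested genes. Testing required a group mean of at least 1 FPKM in 1 or both groups, and 28 of the 32 genes met this. The 6 libraries held 36380462 to 37067116 recovered reads. The melanocyte markers were present in all libraries: the 8 of 8 fixed markers summed to 7274 to 7305 FPKM with rPPAA18C6@Dox and 6215 to 6304 FPKM with PBS. Of 14 immune markers 2 have a row, Cd68 and Lyz2, and they summed to 2.07 to 2.40 and 1.92 to 2.26 FPKM, with Cd68 higher (1.66 against 1.27 FPKM) and Lyz2 lower (0.572 against 0.782 FPKM) in mean. Of 13 stromal, endothelial and epithelial markers 8 have a row, summing to 8.83 to 9.12 and 7.33 to 7.62 FPKM. Within that sum Vwf was at 3.32 against 1.497 FPKM, while Col1a2 (1.096 against 1.37 FPKM) and Pdgfrb (2.04 against 2.26 FPKM) went the other way. In this bulk RNA, fewer cells of a type and less RNA per cell cannot be told apart. The part that these marker sums play in the differences below was not tested.

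At 8 h, 1 of the 28 tested death genes rose and none fell. The gene that rose was Cflar, which encodes c-FLIP, the inhibitor of caspase-8 activation at death receptors, and its mean was 23.1% higher with rPPAA18C6@Dox. The guardians, the pore formers, the BH3-only genes, the apoptosome, the caspases and the receptors held no other gene past the threshold. Over all 10680 tested genes 9.93% passed it, 4.66% higher and 5.26% lower, so 1 of 28 is not above the background share. At an unadjusted p under 0.05 there were 7 of 28, beside 26.2% of all tested genes. The authors' deposited table, whose p-value comes from a test not named in the sources used here, has 8 of the 28 under 0.05, beside 23.2% of the tested genes. These were Cflar, Apaf1, Bcl2l1, Mcl1, Bcl2, Cycs and Aifm1, each with a higher mean with rPPAA18C6@Dox, and Bbc3, with a lower mean. Voom on the recovered reads called 4 of the 30 genes it tested, Cflar and Apaf1 higher, Bcl2l1 higher and Bbc3 lower, beside 12.4% of all its tested genes.

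**Figure D1:**
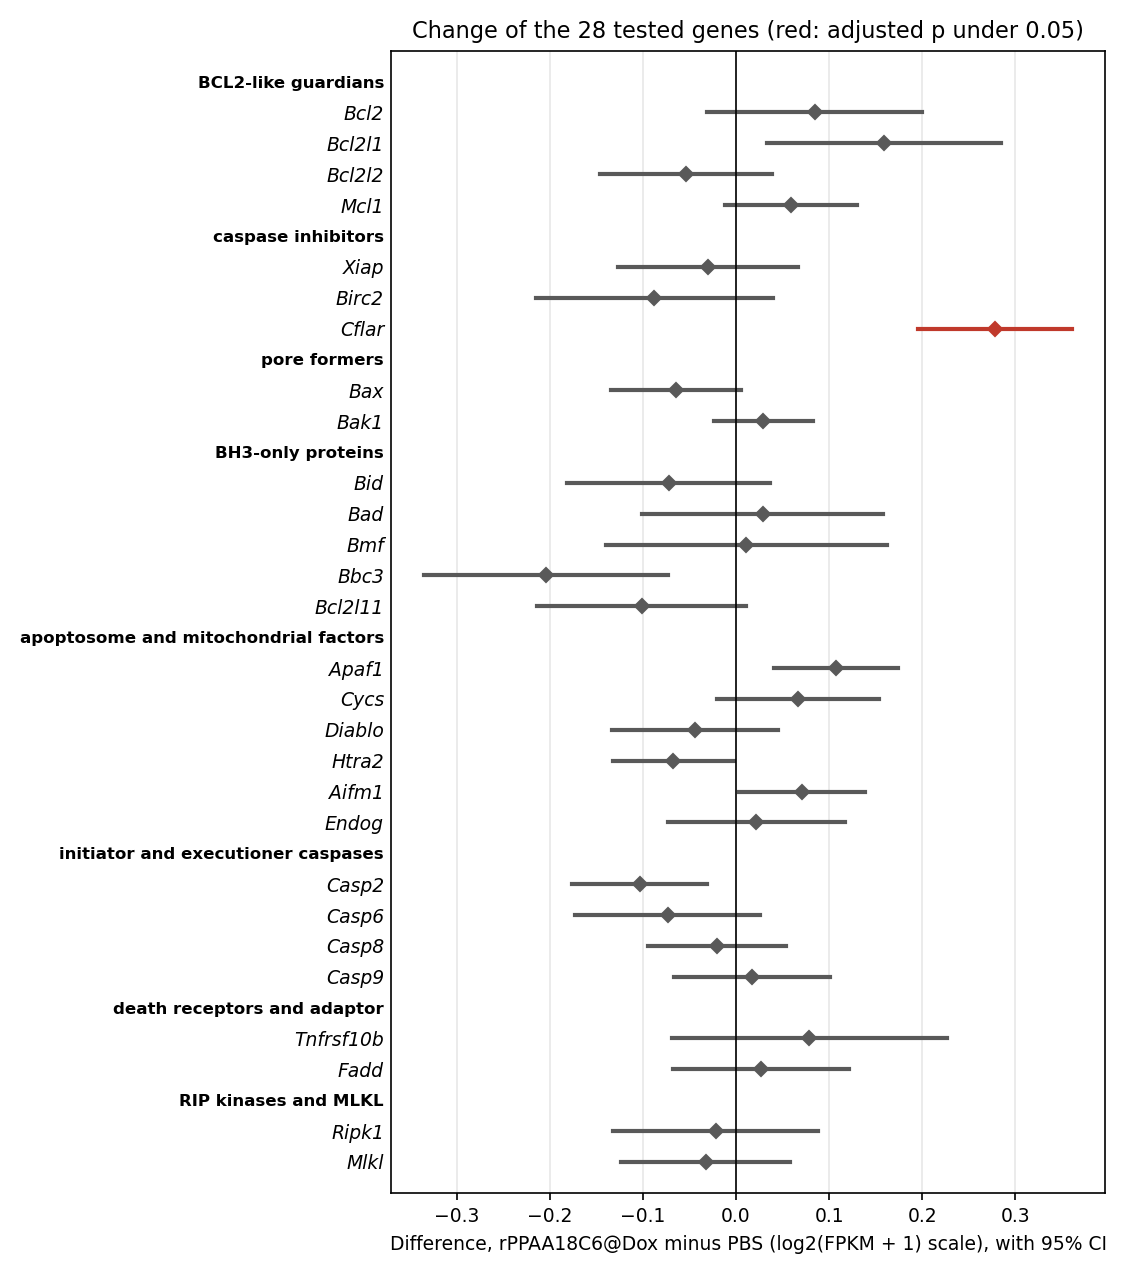
Estimated difference, rPPAA18C6@Dox minus PBS, on the log2(FPKM + 1) scale (x axis) for the 28 tested genes in order of role (y axis). Diamonds are limma estimates, lines are 95% confidence intervals not adjusted for the number of genes, and red marks an adjusted p under 0.05, which Cflar alone has (0.28).

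Cflar stood at 15.3, 14.4 and 14.6 FPKM in rPPAA18C6@Dox replicates 1, 2 and 3 and at 11.7, 12.4 and 11.8 FPKM in PBS replicates 1, 2 and 3. The groups did not overlap, the rPPAA18C6@Dox libraries being higher, and the gap between the groups was wider than either group's range. The means were 14.7 ± 0.465 and 11.98 ± 0.394 FPKM (SD, n = 3 libraries each), a log2 fold change of 0.28 (SE 0.0372, 95% confidence interval 0.20 to 0.36, limma adjusted p = 0.00166). Between 3814 and 4956 reads per library lay behind these values. Of all tested genes 147, or 1.38%, had an estimate at least as high. The call was kept in all 13 alternative fits, including the 6 that each left out 1 library, with adjusted p between 1.13e-07 and 0.0117.

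Casp8, the protease that c-FLIP resembles and restrains, did not pass the threshold. Its level was 18.6, 19.0 and 19.7 FPKM with rPPAA18C6@Dox and 19.6, 18.9 and 19.7 FPKM with PBS, and the groups overlapped throughout. The estimate was -0.02 (SE 0.0331, 95% confidence interval -0.09 to 0.05, adjusted p = 0.743). Fadd, the adaptor that brings both proteins to the receptor, was at 9.01, 8.81 and 9.76 FPKM and at 8.93, 9.19 and 8.89 FPKM (0.03, adjusted p = 0.738), with overlapping groups. The ratio of Cflar to Casp8 within a library was 0.821, 0.756 and 0.738 with rPPAA18C6@Dox and 0.597, 0.657 and 0.5995 with PBS. The lowest rPPAA18C6@Dox ratio lay above the highest PBS ratio, and the mean ratio was 24.9% higher, with no test made on it.

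Cflar and Casp8 lie on the same strand of mouse chromosome 1. Their promoter windows are shown because the genes are neighbours of linked function, of which Cflar passed the threshold and Casp8 did not (the difference between them was not tested), and the window of Apaf1, the gene with the next smallest p, is shown for contrast. Each window runs from 250 bases before to 50 bases after the annotated start, 5′ to 3′ on the gene's strand, from RefSeq on GRCm38.p6: chr1:58711241-58711540 (+ strand) for Cflar, chr1:58802252-58802551 (+ strand) for Casp8 and chr10:91082694-91082993 (- strand) for Apaf1. Capitals mark any match, on either strand, to 8 motifs: the TATA box (TATAAA), the CCAAT box (CCAAT), the GC box (GGGCGG), AP-1 (TGANTCA), CRE (TGACGTCA), the E-box (CACGTG), the M-box (CATGTG) and an NF-kB motif.
Cflar: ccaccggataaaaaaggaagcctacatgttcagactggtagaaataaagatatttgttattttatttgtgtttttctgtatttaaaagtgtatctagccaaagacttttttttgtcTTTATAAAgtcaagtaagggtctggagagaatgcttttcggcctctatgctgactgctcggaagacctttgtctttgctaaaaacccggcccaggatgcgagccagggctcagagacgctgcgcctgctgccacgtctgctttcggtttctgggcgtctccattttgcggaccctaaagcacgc
Casp8: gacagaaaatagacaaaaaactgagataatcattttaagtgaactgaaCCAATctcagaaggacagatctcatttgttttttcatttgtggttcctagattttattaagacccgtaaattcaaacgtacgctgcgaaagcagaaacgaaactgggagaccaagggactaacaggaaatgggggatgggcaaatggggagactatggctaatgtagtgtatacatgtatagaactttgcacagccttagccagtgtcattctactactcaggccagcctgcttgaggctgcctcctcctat
Apaf1: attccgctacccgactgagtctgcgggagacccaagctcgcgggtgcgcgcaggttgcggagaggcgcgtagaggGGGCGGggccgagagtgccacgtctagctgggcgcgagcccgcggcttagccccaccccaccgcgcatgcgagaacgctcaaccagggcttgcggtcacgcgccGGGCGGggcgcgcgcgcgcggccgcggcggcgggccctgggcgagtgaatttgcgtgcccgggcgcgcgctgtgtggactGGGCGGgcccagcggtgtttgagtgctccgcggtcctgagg

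The Cflar window held the TATA box letters on both strands, overlapping each other and first met 134 bases before the start, and no match to the other 7 motifs. Of all 32851 windows 13.6% hold that motif, and of the 26 tested death genes with a window 2 hold it, Cflar and Xiap, each in 1 window. The Casp8 window held 1 CCAAT box, found in 37.4% of all windows, and the Apaf1 window 3 GC boxes, found in 35.7%. Of the 26 genes 20 had a GC box in at least 1 window, or 25 of their 38 windows (65.8%). The guanine and cytosine content was 45% for Cflar and 42% for Casp8, against a median of 62.2% over the 38 windows of death genes and 52.7% over all windows. None of the 38 windows held the AP-1 letters, which 7.81% of all windows hold. The 38 windows belong to genes that passed the filter on level, while the 32851 belong to genes of any level. The part that this filter plays in the contrasts was not tested. These matches describe letters in a window and are no evidence of binding.

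**Figure D2:**
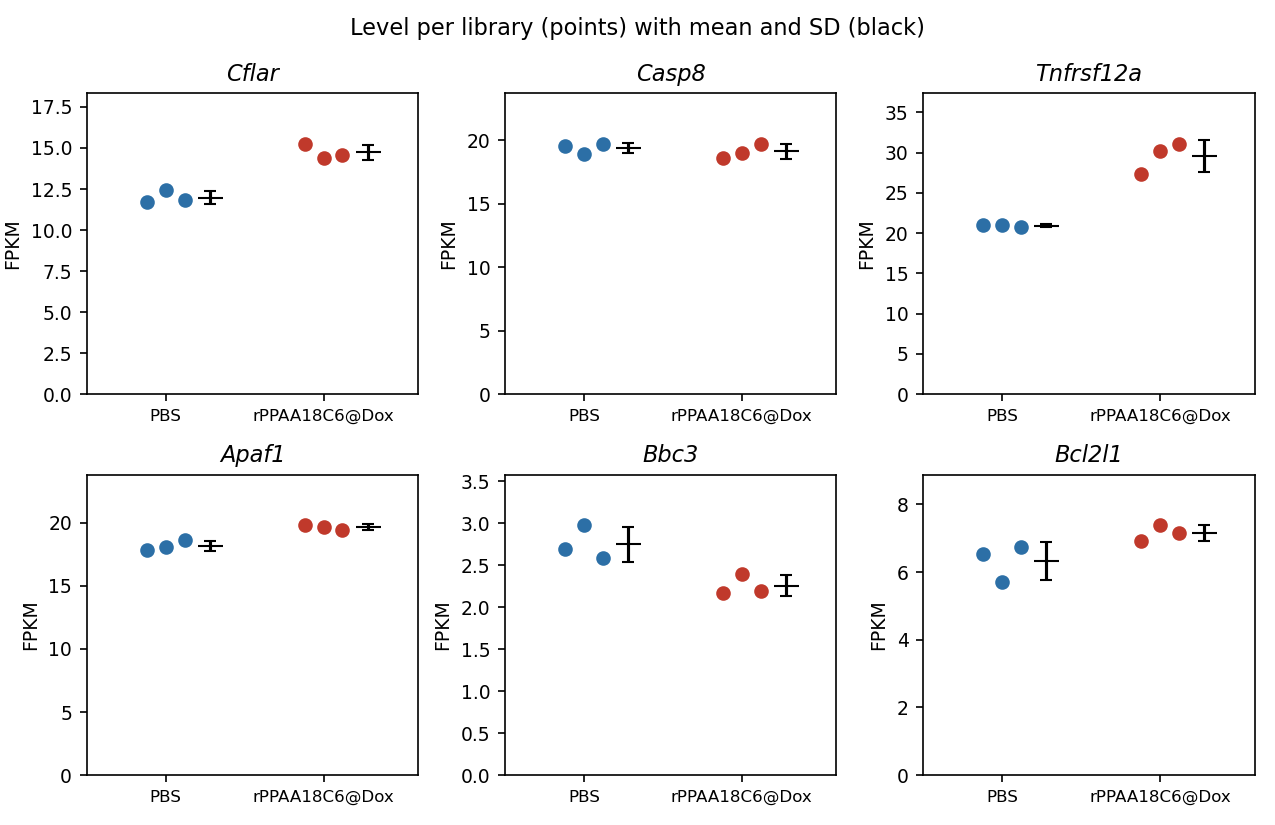
Level in FPKM (y axis, from 0) in each PBS (blue) and rPPAA18C6@Dox (red) library for Cflar, Casp8, Tnfrsf12a, Apaf1, Bbc3 and Bcl2l1, with the group mean and SD in black (n = 3 libraries). The groups overlap for Casp8, while for Cflar the lowest rPPAA18C6@Dox library (14.4 FPKM) stands above the highest PBS library (12.4 FPKM).

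The other caspase inhibitors gave no call. Birc2 (cIAP1), a ubiquitin ligase that acts on RIPK1, was at 3.59, 3.85 and 3.34 FPKM with rPPAA18C6@Dox and 3.79, 3.71 and 4.14 FPKM with PBS (-0.09, SE 0.0572, adjusted p = 0.368), and the groups overlapped. Xiap, which binds and blocks active caspases, was at 3.65, 3.62 and 3.63 FPKM and at 3.70, 3.84 and 3.66 FPKM. Its groups did not overlap, and the estimate was -0.03 (SE 0.0434, adjusted p = 0.709). Birc3 (cIAP2) was near absent: it was listed at 0 in rPPAA18C6@Dox replicate 1 and had at most 8 reads in any library.

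Among the guardians, which hold BAX and BAK in check, no gene passed the threshold. Mcl1, the guardian with the highest level, was at 19.3, 19.7 and 19.98 FPKM with rPPAA18C6@Dox and 19.4, 18.4 and 18.8 FPKM with PBS (0.06, SE 0.0318, adjusted p = 0.280). Bcl2l1, which encodes BCL-xL, was at 6.93, 7.40 and 7.16 FPKM and at 6.54, 5.70 and 6.75 FPKM. All 3 rPPAA18C6@Dox libraries lay above the PBS libraries, among which replicate 2 was lowest, and the mean was 13.2% higher (0.16, SE 0.0564, adjusted p = 0.107). Bcl2 itself was at 6.27, 5.59 and 5.94 FPKM and at 5.19, 5.65 and 5.77 FPKM, with overlap (0.08, adjusted p = 0.339). Bcl2l2 (BCL-w) had the opposite sign, from 4.19 ± 0.0589 FPKM with PBS to 4.001 ± 0.0429 FPKM (-0.05, adjusted p = 0.452). All its rPPAA18C6@Dox libraries lay below its PBS libraries. Without PBS replicate 2 the Bcl2l1 estimate was 0.09. Its call depended on the method: voom on the recovered reads gave 0.18 with an adjusted p of 0.0238, and over all fits the adjusted p ranged from 0.0238 to 0.270.

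Bax and Bak1, the tested pore formers, had the highest levels of the BCL2 family, also with the longest transcript as the length. Bax stood at 146, 142 and 147 FPKM with rPPAA18C6@Dox and 156, 145 and 155 FPKM with PBS, and PBS replicate 2 fell within the range of the rPPAA18C6@Dox libraries (-0.06, SE 0.0315, adjusted p = 0.227). Bak1 was at 64.2, 64.4 and 63.2 FPKM and at 61.7, 63.3 and 62.8 FPKM, also with overlap (0.03, SE 0.0240, adjusted p = 0.481). Bok, the third pore former, was below the filter, with 3 to 18 reads per library. Summed within a library, the 4 guardians reached 36.5 to 37.1 FPKM with rPPAA18C6@Dox and 33.9 to 35.5 FPKM with PBS, and the 3 pore formers 206.9 to 210.8 and 208.3 to 218.2 FPKM. The ratio of the sums was 0.174, 0.178 and 0.176 against 0.162, 0.163 and 0.163, so the groups did not overlap, and the mean ratio was 8.13% higher with rPPAA18C6@Dox. No test was made on sums or ratios, and no share of non-overlap over other sums or ratios was computed.

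**Figure D3:**
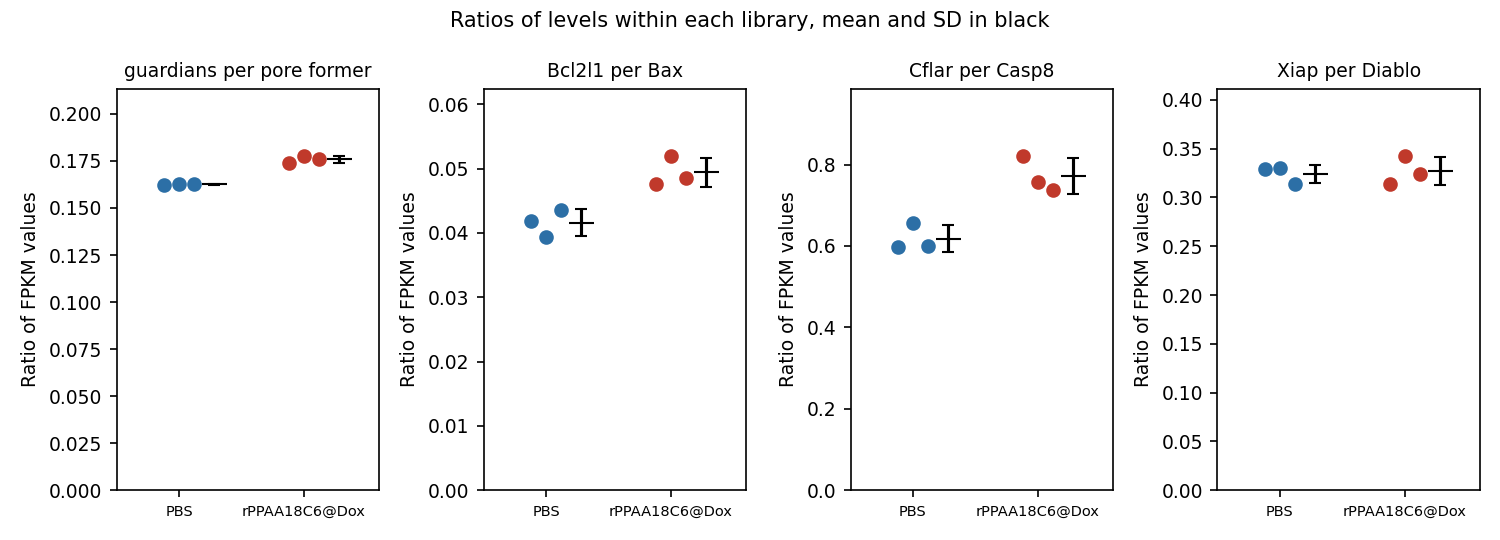
Ratio of FPKM values within each library (y axis, from 0) for the summed guardians over the summed pore formers, Bcl2l1 over Bax, Cflar over Casp8 and Xiap over Diablo, in PBS (blue) and rPPAA18C6@Dox (red) libraries, with mean and SD in black (n = 3). The groups stand apart in the first 3 panels and overlap for Xiap over Diablo (0.324 ± 0.00927 and 0.327 ± 0.0145). The ratios were chosen and not tested, and no background share of non-overlap was computed for ratios.

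For Bcl2l1 over Bax, the 3 rPPAA18C6@Dox libraries gave 0.0476, 0.0520 and 0.0486 and the PBS libraries 0.0419, 0.0394 and 0.0436. The groups did not overlap and the mean ratio was 18.7% higher with rPPAA18C6@Dox, while neither gene passed the threshold alone. Of single tested genes 31.3% had no overlap in either direction, and no such share was computed for ratios. The separation of a chosen ratio is therefore given as a description, and whether it marks a shift was not tested. Ratios between genes rest on the gene lengths that the deposited values imply, which were 0.38 (Casp6) to 4.04 (Xiap) times the longest GENCODE transcript. With the longest transcript as the length, the ratio of guardians to pore formers was 0.449 ± 0.00788 with rPPAA18C6@Dox and 0.416 ± 0.00222 with PBS, and the groups still did not overlap.

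None of the 5 tested BH3-only genes, the triggers of the mitochondrial route, changed past the threshold, and Bbc3, Bcl2l11 and Bmf had low levels. Bbc3, which encodes PUMA, a target of p53 and of CHOP, was at 2.17, 2.40 and 2.19 FPKM with rPPAA18C6@Dox and 2.69, 2.98 and 2.58 FPKM with PBS. All rPPAA18C6@Dox libraries lay below all PBS libraries, with a percent change of the mean of -18.1, and the threshold was missed (-0.20, SE 0.0588, adjusted p = 0.0552). Bcl2l11, which encodes BIM, was at 2.06, 2.07 and 2.05 FPKM and at 2.23, 2.38 and 2.25 FPKM, again without overlap and lower with rPPAA18C6@Dox (-0.10, SE 0.0503, adjusted p = 0.237). Bid, which caspase-8 cleaves to link both routes, was at 11.2, 9.93 and 11.4 FPKM and at 11.5, 11.6 and 11.2 FPKM, with overlap (-0.07, adjusted p = 0.386). Bad and Bmf, at 10.5 ± 0.471 and 2.13 ± 0.198 FPKM with PBS, had estimates of 0.03 and 0.01 that changed sign when single libraries were left out. The Bbc3 call appeared without the mean-variance trend (adjusted p = 0.0466) and with voom (-0.29, adjusted p = 0.0382).

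Of the proteins released from mitochondria and their partner, Apaf1, the scaffold of the apoptosome, had the smallest p. It stood at 19.9, 19.7 and 19.4 FPKM with rPPAA18C6@Dox and 17.9, 18.1 and 18.6 FPKM with PBS, without overlap and with a mean 8.13% higher (0.11, SE 0.0300, adjusted p = 0.0512). It passed with a filter at 5 FPKM (0.0450), with quantile normalization (0.0434) and with voom (0.0122). Aifm1, a flavoprotein of the intermembrane space that can enter the nucleus in cell death, was at 34.2, 33.0 and 34.4 FPKM and at 32.4, 32.9 and 31.3 FPKM, just short of overlap (0.07, SE 0.0305, adjusted p = 0.174). Htra2, a mitochondrial serine protease that antagonises XIAP, went the other way at 64.0, 63.6 and 64.8 FPKM against 69.98, 65.4 and 66.5 FPKM (-0.07, SE 0.0293, adjusted p = 0.178). Cycs, cytochrome c, was the most abundant of these at 81.3, 77.3 and 84.7 FPKM and 81.1, 75.8 and 75.2 FPKM, with overlap (0.07, adjusted p = 0.316). Diablo, the XIAP antagonist also called SMAC, and Endog, a nuclease, were at 11.5 ± 0.246 and 5.49 ± 0.187 FPKM with PBS and had estimates of -0.04 and 0.02. The Htra2 exons overlap those of Loxl3 and Aup1 on the other strand, those of Diablo overlap B3gnt4, and those of Endog overlap Spout1, so reads of these pairs may be mixed, as no source used here gives the use of strand in counting. Exons of Bad, Bak1, Bax, Bcl2, Bcl2l2, Bid, Casp9, Fadd and Ripk1 also overlap another annotated gene, while those of Cflar, Casp8, Apaf1, Bbc3, Bcl2l1 and Casp2 do not.

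The tested caspases gave no call. Casp2, an initiator that the PIDDosome complex activates, was at 15.8, 15.7 and 15.1 FPKM with rPPAA18C6@Dox and 16.4, 17.0 and 17.0 FPKM with PBS. The groups did not overlap, and the estimate was -0.10 (SE 0.0325, adjusted p = 0.0742). Casp6, an executioner, was at 9.26, 8.34 and 8.70 FPKM and at 9.10, 9.05 and 9.66 FPKM, with overlap (-0.07, SE 0.0447, adjusted p = 0.335). Casp9, the initiator of the apoptosome, was at 8.42 ± 0.256 FPKM with PBS and 8.53 ± 0.180 FPKM with rPPAA18C6@Dox (0.02, SE 0.0378, adjusted p = 0.817). Casp4, the mouse gene also called caspase-11, which senses lipopolysaccharide and can start pyroptosis, had 1 to 9 reads per library and could not be compared at this depth.

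Of the death receptors, Tnfrsf10b, the only TRAIL death receptor of the mouse and a known target of CHOP in human cells, was at 5.48, 6.23 and 6.27 FPKM with rPPAA18C6@Dox and 5.96, 5.90 and 5.02 FPKM with PBS. The groups overlapped and the estimate of 0.08 had a wide interval (SE 0.0663, 95% confidence interval -0.07 to 0.23, adjusted p = 0.493). Fas, the receptor of Fas ligand, was below the filter with 4 to 18 reads per library. Ripk1, the kinase that passes receptor signals to survival or death, was at 2.20, 2.15 and 2.15 FPKM and at 2.16, 2.26 and 2.21 FPKM (-0.02, SE 0.0494, adjusted p = 0.825). Mlkl, which ruptures the plasma membrane in necroptosis, was well expressed at 22.4, 22.4 and 23.7 FPKM and at 24.6, 23.5 and 22.2 FPKM (-0.03, SE 0.0406, adjusted p = 0.655). Both genes had overlapping groups, and the sign of Mlkl turned without PBS replicate 1 and that of Ripk1 with quantile normalization.

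**Figure D4:**
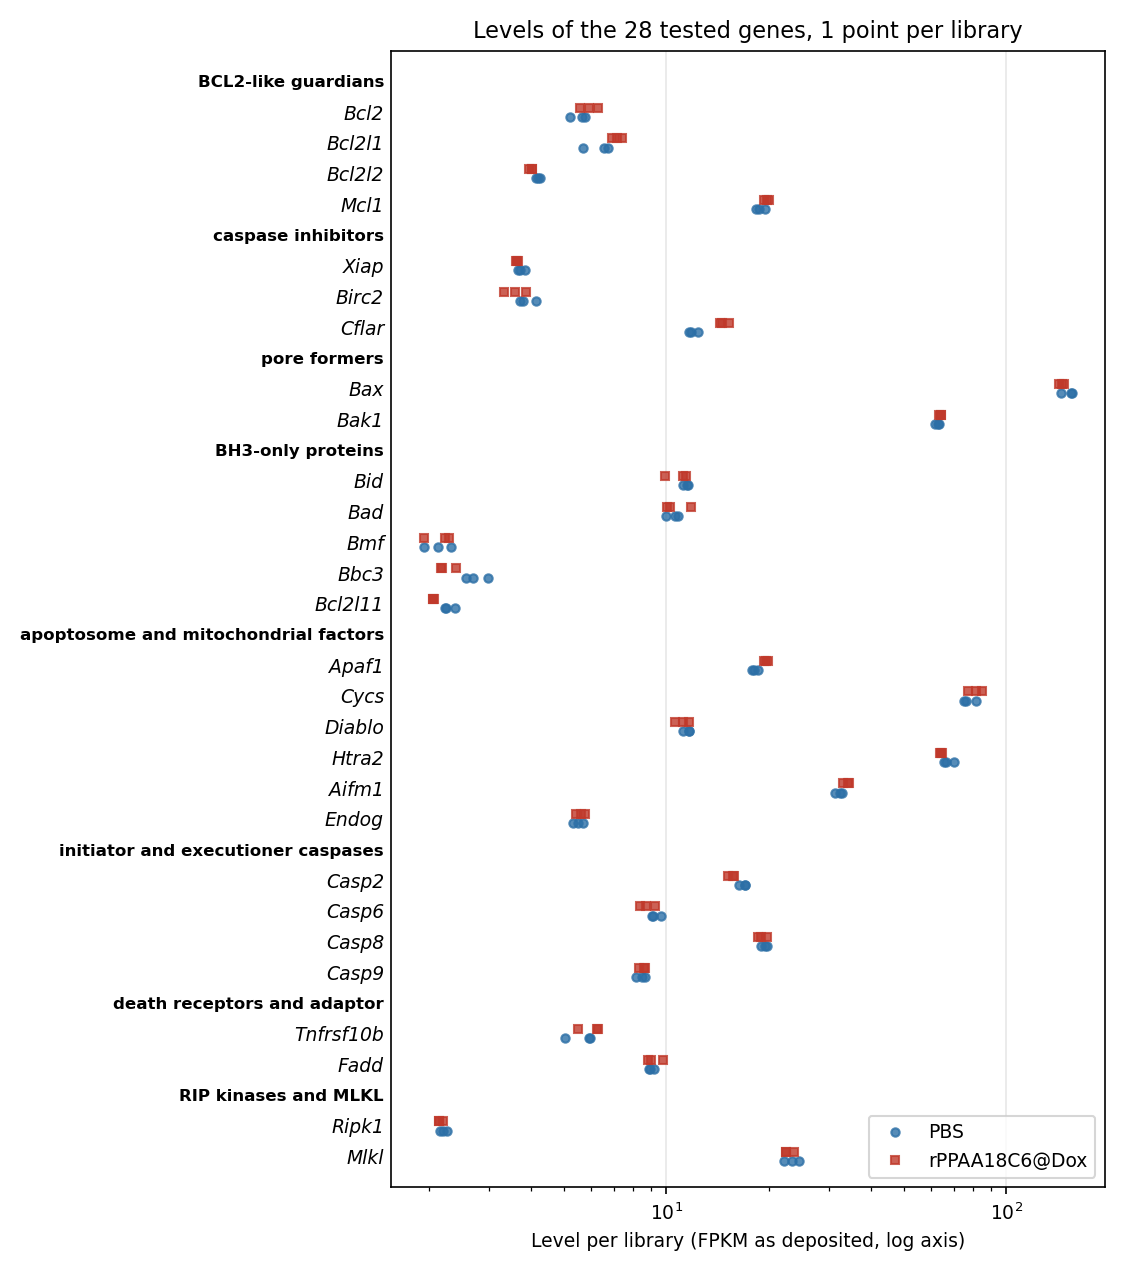
Level in FPKM (x axis, log scale) of the 28 tested genes in order of role (y axis), with 1 blue circle per PBS library and 1 red square per rPPAA18C6@Dox library. Levels run from 1.93 FPKM (Bmf) to 156 FPKM (Bax), and for most genes both groups lie within a narrow band.

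Across the PBS libraries the order of levels began with Bax (152 ± 6.27 FPKM), Cycs (77.4 ± 3.24), Htra2 (67.3 ± 2.40) and Bak1 (62.6 ± 0.858), followed by Aifm1 (32.2 ± 0.845) and Mlkl (23.4 ± 1.2). Casp8, Mcl1 and Apaf1 followed at 19.4 ± 0.422, 18.9 ± 0.532 and 18.2 ± 0.40 FPKM, where neighbours lie within about the spread of the libraries. At the low end stood Bbc3, Bcl2l11, Ripk1 and Bmf, at 2.13 to 2.75 FPKM. This order holds for the deposited lengths only: with the longest GENCODE transcript Xiap moved from rank 24 to rank 12 of the 32 genes and Casp6 from rank 15 to rank 27, Mcl1 from rank 8 to rank 4, Aifm1 from rank 5 to rank 8 and Ripk1 from rank 27 to rank 22, while Bax and Cycs kept ranks 1 and 2. Within a group the libraries differed little, with a median coefficient of variation of 3.22% for the tested death genes (0.444% to 9.31%) and 3.46% for all tested genes.

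By function, the 7 tested pro-survival genes had a median difference of 0.06 (1 rise, 4 estimates above 0), the 13 pro-death genes 0.01 (7 above 0), the 4 caspases -0.05 (1 above 0) and the 4 receptor and RIP kinase genes 0.002 (2 above 0). Over all 28 the median was -0.005 with 14 estimates on each side, and over all tested genes it was -0.01. The pro-death median turned negative with voom (-0.02) and in 4 of the 6 fits that left out 1 library (down to -0.04). The receptor median turned negative with a pseudocount of 0.1 and without rPPAA18C6@Dox replicate 3 or PBS replicate 3 (down to -0.02). The size of a typical difference, whatever its sign, was 0.07 for the death genes and 0.05 for all tested genes. Apart from Cflar and Bbc3, the 95% confidence interval that reached farthest from 0 was that of Bcl2l1, at 0.28. The rPPAA18C6@Dox libraries stood wholly above the PBS libraries for 4 of the 28 and wholly below for 6, beside 12.6% and 18.7% of all tested genes.

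**Figure D5:**
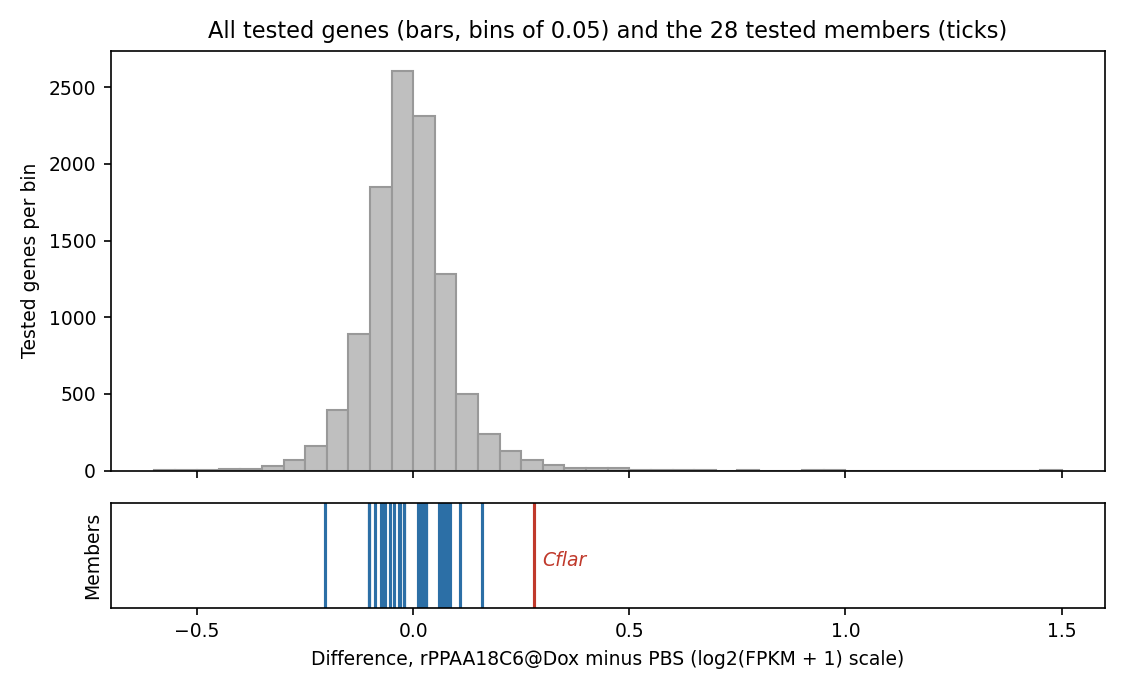
Number of tested genes per bin of 0.05 (upper panel, y axis from 0) by difference, rPPAA18C6@Dox minus PBS, on the log2(FPKM + 1) scale (x axis), with 1 tick per tested death gene in the lower panel. The death genes other than Cflar lie between -0.20 (Bbc3) and 0.16 (Bcl2l1), with Cflar (red) at 0.28, while all tested genes run from -0.57 to 1.49. This scale understates the change of genes with low levels. With a pseudocount of 0.1 FPKM the estimates were -0.28 for Bbc3 and 0.30 for Cflar.

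A further list of 62 apoptosis genes, with further BCL2 relatives, BAG and BNIP proteins and TNF family genes among them, was read in the same fit. Of the 41 tested 1 rose and none fell, beside 4.66% and 5.26% of all tested genes, and the median was -0.007. The gene that rose was Tnfrsf12a, which encodes FN14, the receptor of the cytokine TWEAK. It stood at 27.4, 30.3 and 31.1 FPKM with rPPAA18C6@Dox and 21.04, 21.01 and 20.7 FPKM with PBS, with no overlap and a mean 41.4% higher (0.48, SE 0.0432, adjusted p = 0.000117). The PBS libraries were close to each other and the rPPAA18C6@Dox libraries more spread. The call for Tnfrsf12a was kept in all 13 alternative fits. Of 13 tested transcription factors that are known to act on genes of these families, 4 rose and 3 fell, beside 4.66% and 5.26% of all tested genes. These factors were listed with earlier results of these data known, so their share cannot be read as an enrichment. The 4 with the smallest p were Mitf (0.30, adjusted p = 8.86e-05), the melanocyte regulator that acts on Bcl2 in melanoma cells, Myc (-0.30, adjusted p = 0.00152), Jun (0.31, adjusted p = 0.00261), whose exons overlap the antisense gene Junos, and Nfkb1 (-0.21, adjusted p = 0.00714), a subunit of NF-kB, for which Cflar is a known target. The factors named above for Bbc3 and Tnfrsf10b, chosen after their values were seen, also passed: Ddit3, which encodes CHOP and whose exons overlap Mars, rose (0.30, adjusted p = 0.0283) and Trp53, which encodes p53, fell (-0.17, adjusted p = 0.00844). Stat3, whose exons overlap Stat5a, was the remaining factor to pass and rose (0.11, limma adjusted p = 0.0376). The Trp53 call was kept in all 13 alternative fits, while that of Ddit3 was lost with no filter (0.104), without the trend (0.0656) and when rPPAA18C6@Dox replicate 1 (0.0826), rPPAA18C6@Dox replicate 3 (0.0987), PBS replicate 1 (0.0820) and PBS replicate 2 (0.0556) were left out in turn, all limma adjusted p-values.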

How the data were processed

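RNA was sequenced from 6 B16F10 libraries, prepared with the TruSeq Stranded mRNA kit per the labels' protocols. Per gene and library the deposited table holds 1 value, read as FPKM: the header names no unit, and the 6 values of a gene are whole numbers of reads after 1 factor per gene and 1 per library (all 15726 genes, tolerance 0.01 reads). Build mm9 is named per the submitters' processing notes; the sources used here name no aligner, counter, strand setting or filter. The deposited p-value is the authors' own, from a test the header does not name.

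Columns named for PBS matched the PBS titles. The other 3 were assigned to rPPAA18C6@Dox by elimination and by number, on which the direction of each difference depends. Values of log2(FPKM + 1) were tested without pairing and two-sided by limma (version 3.58.1, R 4.3.3), using its mean-variance trend and calling adjusted p-values under 0.05. The pseudocount of 1 understates the change of genes with low levels. The test was also run on simulated reads with known changes and the same dispersion (0.002) for every gene, which real genes need not share. No result here rests on that run. Each library was counted separately. Libraries of a group differed by more than sampling noise (mean chi-square per gene 2.38 to 3.98, where noise alone gives about 1). That spread does not tell whether they are separate cultures. Exon overlaps and transcript lengths come from GENCODE vM21, and promoters from RefSeq (GRCm38.p6), matched by symbol for 26 of the 28 tested genes.

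Values in every library are given for genes past the threshold, the 3 smallest p-values of each role and the highest level of each role; from the further list, genes past the threshold. The genes and lists were chosen with earlier results of these data known. Alternatives were another pseudocount (0.1), other filters, quantile normalization, no trend, voom on recovered reads with a mean of at least 10, a replicate block and leaving out each library; the transcript length was added after the data were seen.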

Additional observations from a re-analysis of the deposited data

How the results depend on the processing

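The rise of Cflar was called in every fit, with estimates of 0.25 to 0.30. The count of death genes called was 1 in each fit without 1 library, with a pseudocount of 0.1, with no filter and with the replicate block. It was 2 with a mean of at least 5 FPKM or quantile normalization (Apaf1 added), 2 without the trend (Bbc3 added) and 4 with voom. For the further apoptosis list the count was 2 with quantile normalization, 4 with voom and 1 to 2 without 1 library. Over all tested genes the count was 681 (335 lower) with no filter, 1620 (918 lower) with voom and 600 to 749 without 1 library (314 to 371 higher, 285 to 381 lower); the voom count also includes genes of lower level.

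With no filter the medians were 0.0334 (pro-survival), -0.0166 (pro-death) and -0.0203 (caspases), as genes near 0 entered, and the pro-survival median was 0.12 over the fewer genes at 5 FPKM or more. Without 1 library they ran from 0.0413 to 0.0565, from -0.0392 to 0.0238 and from -0.0632 to -0.0276. Signs turned, with no call either way, for Ripk1 with quantile normalization (0.00126) and for 5 genes without single libraries. Bmf ran from -0.0355 (without PBS replicate 1) to 0.0624, with -0.00851 and -0.0209 when rPPAA18C6@Dox replicates 1 and 3 were left out in turn. Bad ran from -0.0392 (without rPPAA18C6@Dox replicate 3) to 0.0700, with -0.00482 without PBS replicate 3. Fadd ran from -0.0129 (without rPPAA18C6@Dox replicate 3) to 0.0537, Mlkl from -0.0692 to 0.00157 (without PBS replicate 1) and Casp9 from -0.00392 (without PBS replicate 3) to 0.0351. The cause of these shifts was not tested beyond the fewer libraries or genes in each fit.

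No pairing by replicate number was seen in the values: same-numbered deviations correlated at -0.00238, 0.0549 and -0.0210, and 1 of the 3 rPPAA18C6@Dox libraries matched its own number best. With so few libraries this cannot exclude that same-numbered libraries were handled together. With the replicate block Cflar had an adjusted p of 0.00800, 1 death gene was called, and 825 genes were called over all. The quotient of each ratio's rPPAA18C6@Dox mean over its PBS mean was also read with single libraries left out. For guardians per pore former it ran from 1.076 to 1.088, and for Bcl2l1 per Bax from 1.156 to 1.216. For Cflar per Casp8 it ran from 1.209 to 1.290, and for Xiap per Diablo from 0.983 to 1.027. The longest transcript as the length (added after the data were seen) cannot change this quotient for a ratio between single genes. It is therefore no check of those ratios. Only the quotient for guardians per pore former could move, and it went from 1.081 to 1.080. The levels of all the ratios depend on the length used. Genes with few reads (Birc3, Casp4, Bok and Fas) could not be compared at this depth.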
